A study of Mus musculus with 32 samples.

Results

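Ccdc22, Plp2, Praf2, Ccdc120, Tfe3 and Gripap1 lie close together near the proximal end of the mouse X chromosome, in that order along the RefSeq gene map. They are 6 of the 1006 X-linked genes listed in the deposited tables. The 6 were chosen by their place and by their own measured values, namely FPKM from the active X (Xa) and the inactive X (Xi) and the Xi share. FPKM counts sequenced fragments per length of transcript and per sequencing total. The values below therefore describe the 6 genes and carry no test. All 6 passed the filter for tested genes in all 4 tables, a mean Xa plus Xi of 1 FPKM or more over the columns of a table.

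The RNA came from mouse XEN cells, stem cells of the extraembryonic endoderm, derived from a 129S1/SvImj X JF1/Ms cross, so that strain differences separate the alleles. The series has 32 samples in 12 groups. One table holds WT (3 samples), XistpA (4), XRR_KO (2, from 2 clones) and XRRa_KO (3). A further table holds XRRb_XaKO, XRRb_XiKO, XRRc_XaKO and XRRc_XiKO, with 2 samples each. The labels do not describe these alleles further. Cells with a Rad21 degron (2 clones) were given DMSO or dTAG, with 4 samples each, and cells with a Ctcf degron were given DMSO or dTAG for 48 h, with 2 samples each. dTAG is a small molecule that brings about the degradation of a tagged protein, here the cohesin subunit Rad21 or the insulator protein Ctcf, and DMSO is its solvent. The genes Rad21 and Ctcf are autosomal, so the tables used here do not show whether either protein or its mRNA was lost. Each group entered its table as 1 merged value per gene and allele, so no SD, interval or p-value can be given and the depth is unknown. The extraembryonic endoderm markers Gata6 and Sox17 are autosomal and were not analysed here, so the cell type was not checked.

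X inactivation silences most genes on 1 of the X chromosomes of a female cell, and in mouse extraembryonic tissue the silenced copy is the paternal one. The noncoding RNA Xist coats Xi and recruits silencing factors. Genes that are still transcribed from Xi are said to escape, and escape genes can stand directly beside silenced ones. The stretch described here holds both kinds. An Xi share is Xi as a percentage of Xa plus Xi. It does not depend on scaling if the Xa and Xi columns of a group were scaled alike, which was not checked. On that basis shares are set side by side across tables, and FPKM levels only within a table. In bulk RNA, a low Xi share from all cells and a high one from a few cells cannot be told apart.

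Tfe3, Ccdc120 and Ccdc22 carried most of the Xi expression of the 6 genes, while Plp2, Praf2 and Gripap1 were at or near 0 on Xi in most groups. In WT the Xi shares were 29.4% for Tfe3, 22.7% for Ccdc120, 20% for Ccdc22 and 2.27% for Gripap1, and Plp2 and Praf2 were listed at 0 on Xi. By Xi share in WT, Tfe3 ranked 21st, Ccdc120 28th and Ccdc22 30th of 270 tested genes. On Xa the order of FPKM in WT was different: Plp2 stood at 236, Praf2 at 53.6, Ccdc22 at 9.55, Tfe3 at 9.41, Ccdc120 at 4.20 and Gripap1 at 3.48. The members with the highest Xa levels, Plp2 and Praf2, were thus the ones listed at 0 on Xi. With 1 value per group, whether neighbours in this order such as Ccdc22 and Tfe3 differ beyond their spread cannot be said.

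**Figure D1:**
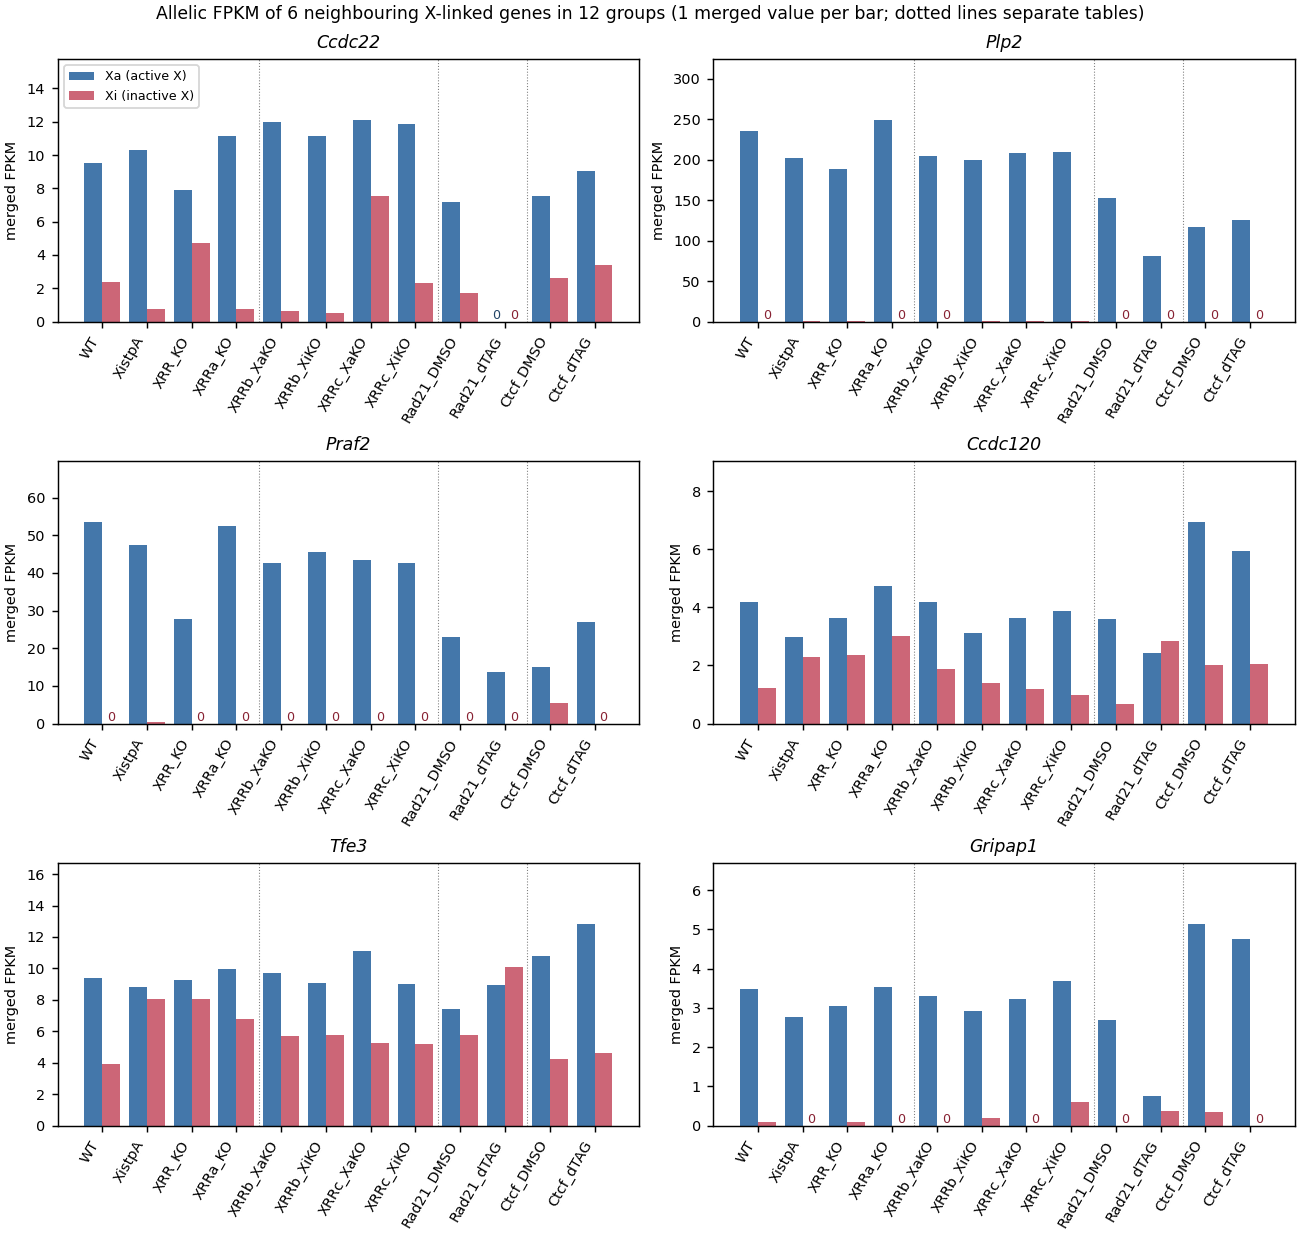
Merged FPKM on Xa (blue) and Xi (red) for each of the 6 genes (vertical axes, starting at 0) in the 12 groups (horizontal axes); each bar is 1 merged value with no error, a printed 0 marks a listed 0, and dotted lines separate the tables. Tfe3 and Ccdc120 have Xi bars in every group, Ccdc22 varies from 0.508 to 7.55 FPKM on Xi within the XRRb and XRRc table, and Praf2 has an Xi bar above 1 FPKM only with Ctcf DMSO.

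An Xi share of 10% or more was held by 3 of the 6 in WT, where 12.2% of all tested genes reached it. The count was 2 in XistpA (20.4% of tested genes), 3 in XRR_KO (21.5%), 2 in XRRa_KO (15.9%), 2 in XRRb_XaKO (13.4%), 2 in XRRb_XiKO (14.2%), 3 in XRRc_XaKO (11.5%) and 4 in XRRc_XiKO (12.3%). It was 3 with Rad21 DMSO (13.4%), 3 of the 5 with a share under Rad21 dTAG (15%), 4 with Ctcf DMSO (13.4%) and 3 with Ctcf dTAG (13%). These shares were among the values that chose the genes, so nothing is read from the excess over all genes. Tfe3 and Ccdc120 were in the count in every group, and the other members came and went.

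The 5 members with a promoter entry in RefSeq (GRCm38.p6) differ in the makeup of the sequence before their start, which is shown here because silenced and escaping genes alternate in this stretch. Plp2 has no entry. Each run below is the part of the entry upstream of every GENCODE M21 transcript start found in it, 5′ to 3′ on the gene's own strand, and capitals mark the dinucleotide CG (CpG), the target of DNA methylation. The sequence is that of the reference strain, not of the 129S1/SvImj or JF1/Ms allele. The first pair escaped in every group and Praf2 was mostly silent.
Tfe3, chrX:7762411-7762559, plus strand: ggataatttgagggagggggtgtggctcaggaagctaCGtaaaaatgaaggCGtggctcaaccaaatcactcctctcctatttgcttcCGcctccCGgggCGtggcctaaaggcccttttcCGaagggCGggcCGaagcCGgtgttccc
Ccdc120, chrX:7741342-7741574, minus strand: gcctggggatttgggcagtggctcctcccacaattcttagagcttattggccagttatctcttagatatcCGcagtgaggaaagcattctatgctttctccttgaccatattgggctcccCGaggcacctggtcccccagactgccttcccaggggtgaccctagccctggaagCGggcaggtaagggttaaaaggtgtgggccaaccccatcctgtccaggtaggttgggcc
Praf2, chrX:7728321-7728438, plus strand: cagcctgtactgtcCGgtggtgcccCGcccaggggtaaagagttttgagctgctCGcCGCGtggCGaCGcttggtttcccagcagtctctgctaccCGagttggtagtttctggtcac

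Over the whole entry of 300 bases, Praf2 had 22 CpG, Ccdc22 had 15, the 2 Tfe3 entries had 14 and 8, Gripap1 had 9 and Ccdc120 had 3. The median was 7 over all 32851 promoters and 7 over the 1223 of the X. These numbers describe the entries, and no relation to Xi expression is drawn from them. The longest run shared by the promoters of 2 members, on either strand, was 13 bases long and belonged to Ccdc22 and Praf2. It occurs on either strand in 4 of the 32851 promoters (0.0122%), among them the Ccdc22 and Praf2 entries themselves. The run was picked for its length, so nothing is read from its rarity. In the 30 bases from its first base, capitals mark the shared run and, in Ccdc22, the motif CACGTG.
Ccdc22, chrX:7605389-7605418, minus strand: CATTTCCCAATGTtcctcgcgcggCACGTG
Praf2, chrX:7728497-7728526, plus strand: CATTTCCCAATGTgcctcacggtgctgtga

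The run begins 2 bases after the RefSeq start base in Ccdc22 and 74 bases before it in Praf2. CACGTG is the palindromic E-box core that factors of the Tfe3 family can bind. It is held by the Ccdc22 entry and no other entry of the 6 genes, and by 7.15% of all promoters. The core CCATNTT, read by the factor Yy1 and searched on both strands, was found in Ccdc120 and Gripap1, and in 16.1% of all promoters. These motifs do not overlap each other in the entries. A match is a match of letters, and binding was not measured.

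Tfe3 encodes a transcription factor that is held near lysosomes when nutrients are plentiful and otherwise enters the nucleus to switch on lysosomal and autophagy genes. It had the steadiest Xi expression of the group. On Xi it stood at 3.92 FPKM in WT, 8.08 in XistpA, 8.03 in XRR_KO and 6.77 in XRRa_KO, while Xa was 9.41, 8.79, 9.26 and 9.99 FPKM. All 3 mutants were above WT on Xi, and the Xa values stayed close together. The Xi share went from 29.4% in WT to 47.9%, 46.4% and 40.4%.

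In the XRRb and XRRc lines Tfe3 on Xi was 5.68 (XRRb_XaKO), 5.79 (XRRb_XiKO), 5.25 (XRRc_XaKO) and 5.19 FPKM (XRRc_XiKO), with shares of 36.9%, 39.0%, 32.2% and 36.5%. The 4 lines thus lay close together and above the WT share. With Rad21 DMSO and dTAG, Xi was 5.77 and 10.1 FPKM and the share 43.8% and 53.1%. With Ctcf DMSO and dTAG, Xi was 4.22 and 4.60 FPKM and the share 28.1% and 26.4%, the lowest of the 12 groups. Over all groups the Tfe3 share had a median of 37.9%.

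Ccdc120, a coiled-coil protein of the centriole, had lower FPKM than Tfe3 on both alleles in every group. On Xi it stood at 1.23 FPKM in WT, 2.28 in XistpA, 2.35 in XRR_KO and 3.03 in XRRa_KO. Xa was 4.20, 2.99, 3.63 and 4.74 FPKM, and the Xi share 22.7%, 43.2%, 39.2% and 39.0%. As for Tfe3, all 3 mutants were above WT in Xi level and share. The 3 mutants are set against 1 WT column, so the agreement between them is not independent.

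In the other lines Ccdc120 on Xi was 1.90 (XRRb_XaKO), 1.40 (XRRb_XiKO), 1.19 (XRRc_XaKO) and 0.978 FPKM (XRRc_XiKO), with shares of 31.1%, 31.1%, 24.6% and 20.1%. Rad21 DMSO gave 0.690 FPKM and the lowest share, 16.1%, and Rad21 dTAG gave 2.83 FPKM and the highest, 53.7%. With Ctcf DMSO and dTAG the levels were 2.03 and 2.05 FPKM and the shares 22.6% and 25.6%. The Rad21 pair therefore spans the whole range of the Xi share of this gene.

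Ccdc22 is a subunit of the CCC complex, in which it joins COMMD proteins on endosomes and helps return membrane proteins to the cell surface. Its Xi level was the most variable of the group. On Xi it stood at 2.39 FPKM in WT, 0.743 in XistpA, 4.70 in XRR_KO and 0.781 in XRRa_KO, with Xa at 9.55, 10.3, 7.92 and 11.2 FPKM. XRR_KO was above WT on Xi and XistpA and XRRa_KO were below it. The Xi share was 20% in WT, 6.72% in XistpA, 37.2% in XRR_KO and 6.55% in XRRa_KO.

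Among the XRRb and XRRc lines, Ccdc22 on Xi was 0.627 (XRRb_XaKO), 0.508 (XRRb_XiKO), 7.55 (XRRc_XaKO) and 2.34 FPKM (XRRc_XiKO). The Xi level differed 14.9-fold between the lowest and the highest of these 4 lines, while Xa ran only from 11.1 to 12.1 FPKM. The shares were 4.96%, 4.36%, 38.4% and 16.5%. Both XRRb lines were low and both XRRc lines were higher, and whether this belongs to the alleles or to the cell lines that carry them cannot be told apart.

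With Rad21 DMSO, Ccdc22 was at 7.20 FPKM on Xa and 1.69 on Xi (19.0%), and with Rad21 dTAG it was listed at 0 on both alleles. With Ctcf DMSO and dTAG it had 2.63 and 3.41 FPKM on Xi, 7.55 and 9.02 on Xa, and shares of 25.8% and 27.5%. A listed 0 on both alleles can be a failed estimate. Its neighbour Prickle3 was likewise listed at 0 on both alleles in 10 of the 12 groups, among them Rad21 dTAG and Ctcf dTAG, and at 11.3 and 10.05 FPKM on Xa with Rad21 DMSO and Ctcf DMSO. In GENCODE M21 (GRCm38), exons of Ccdc22 share 590 of 3427 bases with Foxp3 on the opposite strand and 2957 with Gm36995 on the same strand. Reads of the Foxp3 stretch cannot be assigned in libraries without strand. Reads of the Gm36995 stretch are ambiguous with or without strand. Foxp3 itself was at most 0.122 FPKM on Xa and 0.129 on Xi.

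Plp2, a small membrane protein of the endoplasmic reticulum, had the highest Xa level of the 6 genes in every group. Xa was 236 FPKM in WT, 202 in XistpA, 188 in XRR_KO and 250 in XRRa_KO, between 200 and 210 FPKM in the XRRb and XRRc lines, and 153, 81.2, 117 and 125 FPKM with Rad21 DMSO, Rad21 dTAG, Ctcf DMSO and Ctcf dTAG. On Xi it was listed at 0 in 7 of the 12 groups and never exceeded 0.359 FPKM, a share of 0.171% (XRRc_XiKO). Even at this Xa level, Xi expression stayed far below that of Tfe3, whose Xa FPKM was lower. The gene has 1 near-identical copy on another chromosome, Gm6169, and its exons share 246 bases with Prickle3 on the opposite strand, so its values are uncertain to that extent.

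Praf2, a membrane protein of the endoplasmic reticulum, lies between the escape gene Wdr45 and Ccdc120 but was listed at 0 on Xi in 10 of 12 groups. The exceptions were XistpA, at 0.369 FPKM (0.774%), and Ctcf DMSO, at 5.43 FPKM (26.6%). On Xa it had 53.6 FPKM in WT, 47.3 in XistpA, 27.8 in XRR_KO and 52.5 in XRRa_KO, and between 42.6 and 45.6 FPKM in the XRRb and XRRc lines. XRR_KO was thus the low column of its table. With Ctcf DMSO and dTAG, Xa was 14.9 and 27.0 FPKM, and Xa plus Xi was 20.4 and 27.0 FPKM. Praf2 shares 481 exon bases with Gm45208 on the same strand, so reads of that stretch are ambiguous too.

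Gripap1, an endosomal protein that works with Rab4 in receptor recycling, is the member farthest along and the first of the silent genes beyond Tfe3. It was listed at 0 on Xi in 6 of 12 groups, with a median share of 1.14%. A share of 10% or more appeared only in XRRc_XiKO, at 0.605 of 4.28 FPKM (14.1%), and with Rad21 dTAG, at 0.376 of 1.13 FPKM (33.3%). Xa was between 2.77 and 3.68 FPKM in the WT, XRR, XRRb and XRRc columns, 2.70 and 0.752 FPKM with Rad21 DMSO and dTAG, and 5.15 and 4.75 FPKM with Ctcf DMSO and dTAG. Its Xi values are low, and the high share with Rad21 dTAG came with the lowest Xa level of the 12 groups.

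Along the stretch from Clcn5 to Ebp, Tfe3 was the last tested gene with a median Xi share of 10% or more. From Clcn5, an endosomal chloride and proton exchanger, to Ebp, an enzyme of sterol synthesis, 41 genes are listed and 19 were tested in all 4 tables. From Clcn5 to Tfe3 there were 8 such genes, and 6 of them had a median Xi share of 10% or more over the groups: Clcn5 (50.8%), Ccdc22 (19.0%), the spliceosome protein gene Gpkow (47.6%), the autophagy gene Wdr45 (37.9%), Ccdc120 (28.3%) and Tfe3 (37.9%). The other 2 were Plp2 and Praf2. Gripap1, the next tested gene, had a median of 1.14% and reached 10% in the 2 groups given above. Of the 10 tested genes beyond Gripap1, none had a median share of 10% or more. In single groups 11.5% to 21.5% of all tested genes reached 10%, so most genes fall short and nothing is read from these counts. The highest share of any of these 10 in any group was 2.48% (the deubiquitinase gene Otud5 in XRR_KO), and 99 of their 120 Xi values were listed at 0.

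Neighbours in a fixed list passed the size rule for changes, a log2 difference of 1 or more, in the dTAG comparisons. On Xa, Prickle3 went from the levels given above to a listed 0 with both Rad21 dTAG and Ctcf dTAG. With Rad21 dTAG, Wdr45 rose on Xi from 6.11 to 15.2 FPKM (4.05% of all tested genes rose). Rbm3 went on Xi from 0.567 FPKM to a listed 0 (3.24% fell). On Xa with Rad21 dTAG, Pqbp1 fell from 23.5 to 10.8 FPKM and Ebp from 31.4 to 10.5 FPKM. With Prickle3 this made 3 of the 14 tested genes of the list on Xa, where 21.5% of all tested genes passed the rule in either direction. With Ctcf dTAG, Pim2 rose on Xa from 1.73 to 7.87 FPKM. Of the 16 genes of the list tested there, 1 rose and 1 fell on Xa, where 6.14% of all tested genes passed the rule. In the WT, XRRb and XRRc tables none of the 14 tested genes of that list passed it. On Xi, 12.2%, 15.9% and 5.93% of all tested genes rose in XistpA, XRR_KO and XRRa_KO, and 1.92% and 0.766% in XRRb and XRRc. At most 1.53% fell on Xi in these comparisons, and on Xa at most 4.81% passed the rule. Nothing is read from the absence of listed genes.

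**Figure D2:**
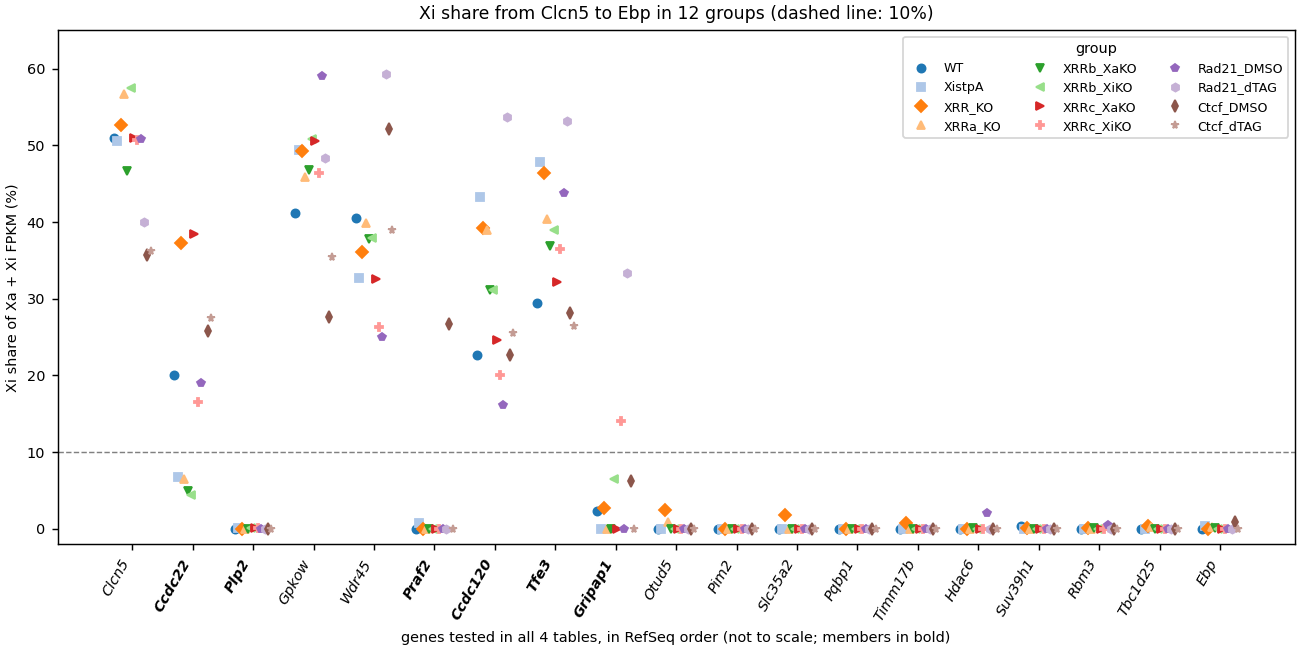
Xi share of Xa plus Xi FPKM in percent (vertical axis) for the 19 genes from Clcn5 to Ebp tested in all 4 tables, in RefSeq order and not to scale (horizontal axis, members in bold), with 1 marker per group; the dashed line is 10%. All markers of Clcn5, Gpkow, Wdr45, Ccdc120 and Tfe3 lie above the line, Plp2 lies at 0.171% or less, Praf2 has 1 marker above the line (26.6%), and every gene from Otud5 onward stays at 2.48% or less.

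The genes whose Xi shares lay nearest to those of each member were sought as the smallest mean absolute difference over the groups. Of the 233 genes tested in all 4 tables, those with a share in every group compared were used. These were 225 genes for each member, and 229 for Ccdc22. For Tfe3 they were Nkap (2.26 percentage points over 12 groups), the RNA helicase gene Ddx3x (3.83 points) and Cstf2 (3.91 points). For Ccdc120 they were Yy2 (6.83 points), the histone demethylase gene Kdm5c (6.94 points) and Ercc6l (7.34 points). For Ccdc22 the distances were larger: the nearest gene, Pbdc1, differed by 10.9 points over the 11 groups in which Ccdc22 has a share, followed by Nsdhl (11.2 points) and Gprasp1 (13.4 points). For Plp2 they were Fhl1, Sat1 and Rbmx2 (0.0288, 0.0317 and 0.0324 points), and 160 of the 225 genes lay within 1 point of it, since most genes are near 0 on Xi. For Praf2 the nearest were Zfx, Ebp (2.21 points) and Zfp280c (2.22 points). Most of the distance for Praf2 comes from its 26.6% with Ctcf DMSO, so genes near 0 on Xi lie similarly far from it. For Gripap1 the nearest were Pja1 (2.84 points), Mid1ip1 (4.47 points) and Fam122b (4.95 points).

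The comparisons between groups follow, as differences of log2(FPKM + 0.5), which understates changes of low genes. A difference of 1 or more is the rule for "rose" and "fell". Percentages of all tested genes past the rule stand beside each count, and since the rule for the members used the same columns, nothing is read from them.

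XistpA, in which Xist was listed at 0 on Xi against 15.5 FPKM in WT, had no member that rose on Xi (12.2% of 270 tested genes rose) and 1 that fell (1.48% fell). Ccdc22 fell by 1.22 on the log2 scale, although its Xa change was only 0.11. With a pseudocount of 1 the Xi change was -0.96, short of the rule. The changes on Xi were 0.96 for Tfe3, 0.68 for Ccdc120 and 0.80 for Praf2, all short of the rule, and the median of the 6 was 0.46 beside 0 for all tested genes. No member passed the rule on Xa, where 4.44% of tested genes did.

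In XRR_KO, with Xist at 1.18 FPKM on Xi, no member rose or fell on Xi (15.9% of tested genes rose and 1.11% fell). Tfe3, Ccdc22 and Ccdc120 were higher than in WT by 0.95, 0.85 and 0.72. Relative to the median Xa change of -0.19 in this comparison, Tfe3 and Ccdc22 passed the rule, at 1.13 and 1.03. On Xa no member passed the rule (4.81% of tested genes did), and Praf2 had the largest difference, -0.94.

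In XRRa_KO, with Xist at 7.86 FPKM on Xi, Ccdc120 rose by 1.03 (5.93% of tested genes rose on Xi) and Ccdc22 fell by 1.17 (1.11% fell). Tfe3 was higher by 0.72. The 2 genes that passed the rule therefore went in opposite directions, and the Xa change of Ccdc22 was 0.21. With a pseudocount of 1 neither passed the rule (0.85 for Ccdc120 and -0.93 for Ccdc22), and with columns scaled to equal median Xa FPKM Ccdc120 was at 0.98. On Xa no member passed the rule, beside 0.741% of tested genes.

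For the XRRb deletion, XRRb_XiKO was set against XRRb_XaKO, with Xist on Xi at 6.72 and 10.9 FPKM. No member rose or fell on Xi, where 1.92% of 261 tested genes rose and 0% fell, or on Xa, where 3.07% passed the rule. The largest Xi difference was that of Plp2, from a listed 0 to 0.299 FPKM (0.68), a level near the bottom of the scale.

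For the XRRc deletion, XRRc_XiKO was set against XRRc_XaKO, with Xist on Xi at 9.74 and 8.35 FPKM. Ccdc22 fell on Xi from 7.55 to 2.34 FPKM (1.53% of tested genes fell) and Gripap1 rose by 1.14, from a listed 0 to 0.605 FPKM (0.766% rose). With a pseudocount of 1 the change of Gripap1 was 0.68, short of the rule. No member passed the rule on Xa, where 2.30% of tested genes did. Set against each other, the 2 XaKO lines differed in Ccdc22 on Xi by more than this: XRRb_XaKO was lower than XRRc_XaKO by -2.84, with 1.15% of tested genes lower by the rule, and the XRRc_XaKO column enters both contrasts.

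Rad21 dTAG was set against DMSO, with Xist on Xi at 35.6 FPKM against 28.0. On Xi, Ccdc120 rose by 1.48 (4.05% of 247 tested genes rose) and Ccdc22 went from 1.69 FPKM to a listed 0 (3.24% of tested genes fell). Tfe3 was higher by 0.76, or 1.02 relative to the median Xa change and 1.15 with columns scaled to equal median Xa FPKM, and Gripap1 went from a listed 0 to 0.376 FPKM. On Xa, Gripap1 fell by 1.35 and Ccdc22 went from 7.20 FPKM to a listed 0, where 21.5% of tested genes passed the rule. Plp2 and Praf2 differed by -0.91 and -0.74 on Xa, beside a median of -0.26 for all tested genes, while Tfe3 was higher by 0.26.

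Values in the Rad21 table were coarse. Under Rad21 dTAG the Xa and Xi values stood at 15 to 17 for Tfe3, 19 to 22 for Ccdc120 and 2 to 1 for Gripap1, and with DMSO at 17 to 4 for Ccdc22 and 26 to 5 for Ccdc120. Such ratios of whole numbers with a sum of at most 60, within a relative tolerance of 2e-05, were found for 54.2% (DMSO) and 66.7% (dTAG) of tested genes with both alleles above 0. In the other 10 groups they were found for 0% to 10.8%, among them Ccdc22 in WT, at 4 to 1. The part of this coarseness in the Rad21 differences was not tested.

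Ctcf dTAG against DMSO left Tfe3, Ccdc120 and Ccdc22 near their control values on Xi, with changes of 0.11, 0.01 and 0.32. Xist on Xi was 18.7 FPKM against 18.6. Praf2 went from 5.43 FPKM to a listed 0 on Xi, the 1 gene of 277 tested that fell there (0.361%), and no member rose (0.361% of tested genes rose). On Xa no member passed the rule (6.14% of tested genes did), and Praf2 was higher by 0.83 beside a median of 0.23 for all tested genes. The Xi value of Praf2 with Ctcf DMSO has no counterpart in WT or Rad21 DMSO, both listed at 0.

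**Figure D3:**
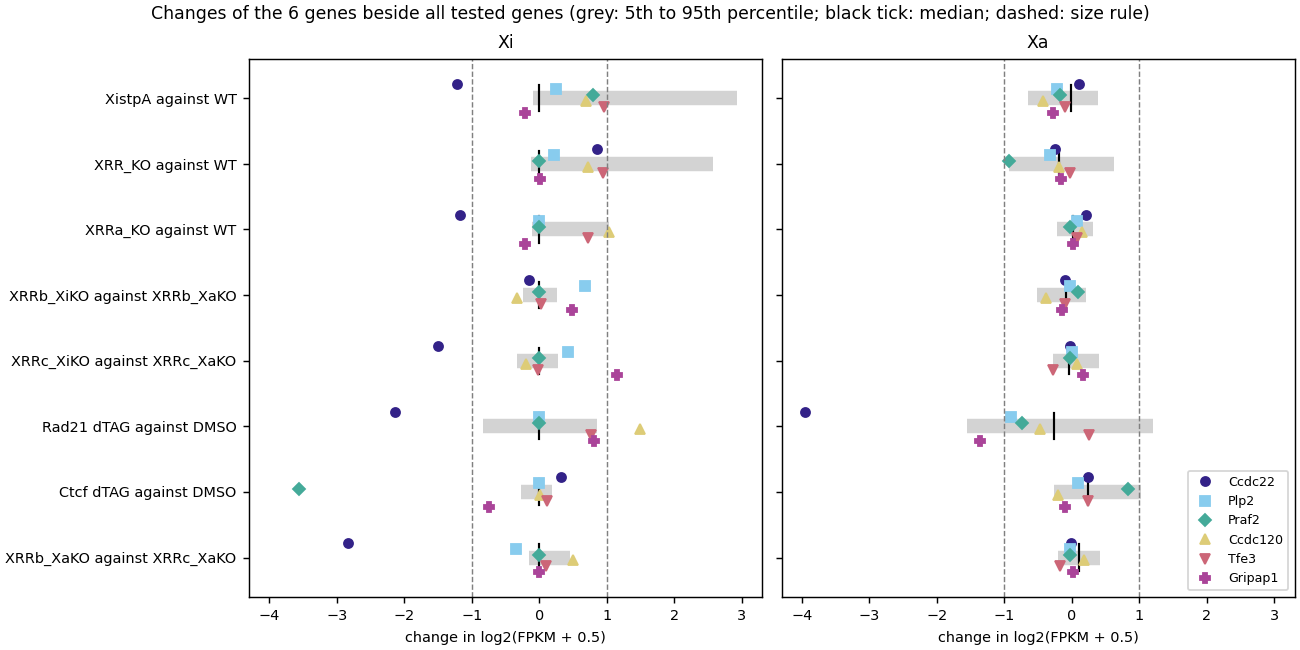
Change in log2(FPKM + 0.5) (horizontal axes) on Xi (left) and Xa (right) for the 6 genes in 7 comparisons and in XRRb_XaKO against XRRc_XaKO; grey bars span the 5th to 95th percentile of all tested genes, black ticks are their median and dashed lines mark the size rule of 1. Ccdc22 lies left of the grey bar on Xi in 5 of the 8 contrasts, and Praf2 does so with Ctcf dTAG, at -3.57. The grey bars on Xi all end short of the lower dashed line. Gripap1 in XistpA, XRRa_KO and Ctcf dTAG, Ccdc120 in XRRb and Plp2 in the XaKO contrast also lie left of them, short of the rule. Some contrasts share the WT or XRRc_XaKO column, and with Rad21 dTAG Ccdc22 is a listed 0.

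Tfe3 regulates genes of lysosomes and autophagy, and Ccdc22 and Gripap1 act on endosomes, so X-linked genes of these systems were read from fixed lists. Of 9 tested lysosome and autophagy genes, 3 rose on Xi in XistpA, where 12.2% of all tested genes rose: the lysosomal membrane gene Lamp2 and the autophagy protease gene Atg4a, from a listed 0 in WT to 1.53 and 3.46 FPKM, and the mitophagy receptor gene Fundc1, from 0.0188 to 9.06 FPKM. In XRR_KO 4 rose on Xi, where 15.9% of all tested genes rose: Lamp2 to 5.70, Atg4a to 3.14, Fundc1 to 3.03 and Atp6ap2 to 1.23 FPKM, the last from 0.0580 FPKM. In the same cells the proton pump accessory gene Atp6ap1 and the lysosomal enzyme gene Gla fell on Xa (-1.18 and -1.11), where 4.81% of all tested genes passed the rule in either direction. In XRRa_KO Atg4a rose on Xi from a listed 0 to 1.05 FPKM (5.93% of all tested genes rose). With Rad21 dTAG Wdr45 rose on Xi by 1.25 (4.05% rose). No gene of this list passed the rule in the XRRb, XRRc or Ctcf comparisons. Of all tested genes, 1.92%, 0.766% and 0.361% rose on Xi in these, in that order, and 0%, 1.53% and 0.361% fell. On Xa 3.07%, 2.30% and 6.14% passed the rule. The absence is therefore not read as a contrast with XistpA or XRR_KO. The list's median Xi change was 0.02 in XistpA and 0.55 in XRR_KO, beside 0 for all tested genes.

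Of the endosome and vesicle transport list, 5 genes were tested in 3 tables and 8 in the Ctcf table. None passed the rule on Xi in any comparison, where 0.361% to 15.9% of all tested genes rose and 0% to 3.24% fell. With so few genes, nothing is read from this. On Xa, the phosphatase gene Ocrl fell by 1.06 with Ctcf dTAG, where 6.14% of all tested genes passed the rule in either direction.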

How the data were processed

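Smart-seq2 libraries of polyadenylated RNA, made without strand, were trimmed with Trim Galore 0.6.4, aligned with HISAT2 2.2.0 and quantified with StringTie 2.1.1 on mm9, per the submitters' processing notes. The values deposited by the authors are FPKM split by allele, per the file headers, in 4 tables that cover the X chromosome. They hold 24 columns, 1 for each group and allele, merged over samples. The columns of the Ctcf table name only the treatment and were matched to the Ctcf degron samples through their table. Replicates cannot be recovered, so the limma fit of the design could not be made and no test, SD or interval is given.

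Changes were computed as differences of log2(FPKM + 0.5) within a table with Python 3.11.15, numpy 2.4.6 and pandas 2.3.3, and figures were drawn with matplotlib 3.10.9. Genes with a mean Xa plus Xi of 1 FPKM or more counted as tested. Near-identical copies were sought with minimap2 2.31. The calls of change were run on the WT Xa column with shifts past the size rule added to chosen genes. No noise was added, so this checks the arithmetic only, and Xi values and shares were not covered. The members, lists and rules were chosen with earlier results of these data known. Genes named were the members, Xist, list genes past the size rule, and the 3 genes nearest to each member in Xi share. Tested neighbours from Clcn5 to Ebp were named if past that rule or at an Xi share of 10% or more in WT. Neighbours below the filter with such a share in WT were left out, apart from Foxp3. Otud5 and Foxp3 were named after their values were seen. The comparison of the 2 XaKO lines was added after the data were seen. Alternatives were other pseudocounts, filters, scalings and thresholds. One result of the endosome and vesicle transport list is not reported here.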

Additional observations from a re-analysis of the deposited data

Results flagged for a closer look

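Ccdc22 differed in sign between the degron experiments, although with Ctcf dTAG its changes were short of the size rule and its Xa change lay near the median of all tested genes (0.23). On Xi its change in log2(FPKM + 0.5) was -2.13 with Rad21 dTAG, where it was listed at 0, and 0.32 with Ctcf dTAG. On Xa the changes were -3.95 and 0.24. The difference between the experiments was not tested, because each group is 1 merged value.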

How the results depend on the processing

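No paired analysis was possible because each column is merged over the samples of its group. For the same reason no replicate could be left out and no replicate block could be fitted. Low Xi values limit the calls. No member past the size rule reversed direction under the alternatives run, but counts of members past the size rule moved. The share of all tested genes was not computed under these alternatives, so nothing is read about the members from the counts below. With a pseudocount of 0.1 the Xi count was 3 in XistpA (1 with 0.5), 1 in XRR_KO (0), 2 in XRRb (0) and 2 with Ctcf dTAG (1). With a pseudocount of 1 it was 0 in XistpA, 0 in XRRa_KO (2 with 0.5) and 1 in XRRc (2). With a size rule of 1.5-fold the Xi count was 4 in XistpA, 3 in XRR_KO, 1 in XRRb, 4 with Rad21 dTAG (2) and 2 with Ctcf dTAG, and the Xa count was 1 in XRR_KO (0), 4 with Rad21 dTAG (2) and 1 with Ctcf dTAG (0). With columns scaled to equal median Xa the Xi count was 1 in XRR_KO and 1 in XRRa_KO, and with changes centred on the median Xa change it was 2 in XRR_KO and 4 with Rad21 dTAG. A filter of 5 FPKM removed Ccdc22, Ccdc120 and Gripap1 from the Rad21 table, leaving 0 on Xi and 0 on Xa, and gave 1 on Xi in XRRc. With an Xi share rule of 20%, the number of members was 2 in XRRc_XiKO (4 at 10%) and 1 with Rad21 DMSO (3 at 10%). Smaller moves were Rad21 dTAG on Xi from 2 to 3 with a pseudocount of 0.1 or scaled columns and XRRa_KO on Xi from 2 to 3 at 1.5-fold. With a share rule of 5% the count went from 2 to 3 in XistpA, XRRa_KO and XRRb_XiKO and from 4 to 5 with Ctcf DMSO. With 0.1 FPKM added to each allele it went from 3 to 4 with Rad21 dTAG. The member added there is Ccdc22, listed at 0 on both alleles, whose share is then set by the added value alone. Without a filter no count moved.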
